A study of Mus musculus with 48 samples.

Results

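Respiratory complex I is the first enzyme of the mitochondrial electron transport chain. It takes electrons from NADH, passes them to ubiquinone, and pumps protons across the inner mitochondrial membrane. Part of its core is encoded by mitochondrial DNA, and the rest of the core, all accessory subunits, and the assembly factors are encoded in the nucleus. Skeletal muscle makes much of its ATP through this chain. The genes described here are those whose symbol starts with Nduf and whose biotype is protein coding in the deposited FPKM table, in which 48 of 56748 genes met this rule. Of these 48 members, 7 encode nuclear core subunits, 9 accessory subunits of the matrix arm, 9 accessory subunits of the proximal membrane arm, and 11 those of the distal membrane arm. One member encodes the acyl carrier subunit (*Ndufab1*), and 8 encode assembly factors (*Ndufaf1* to *Ndufaf8*). *Ndufa4* and *Ndufa4l2* carry the Nduf name but encode a subunit of complex IV and a relative of it, and *Ndufb11b* is a paralog of *Ndufb11*. Another 6 Nduf symbols were not protein coding and were left out.

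The data were RNA sequencing of tibialis anterior muscle from 48 male mice, 39 to 55 weeks old, with 1 library a mouse. WT mice were labelled C57BL/6J, whereas the design text of the series describes floxed mice that carry no Cre. FoxP1SkmKO mice carried homozygous floxed *Foxp1* and an Acta1-Cre transgene, whose promoter drives Cre in muscle fibers and not in the other cells of a muscle. KPC mice had murine KPC pancreatic cancer cells injected into the pancreas, and control mice had sterile vehicle injected there. All mice were moved from a light and dark cycle to constant darkness, and 2 mice of each genotype and condition were taken every 4 h, from circadian time (CT) 18 to CT38. These make 24 groups of 2 mice and 12 mice in each of the 4 combinations of genotype and condition.

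Total counts on genes ran from 14480867 to 20787784 a library, with a median of 16602091. *Foxp1* did not separate the genotypes. Its level ran from 0.43 to 0.97 FPKM (fragments scaled to gene length and to library depth) in WT control, 0.45 to 0.76 in WT KPC, 0.43 to 0.64 in FoxP1SkmKO control, and 0.42 to 0.65 in FoxP1SkmKO KPC libraries. Averaged over time, its log2 fold change in FoxP1SkmKO over WT was -0.11 ± 0.07 (SE) in control mice and -0.20 ± 0.07 in KPC mice, with adjusted p = 0.459 and 0.246. Among WT control mice *Foxp1* was lower at CT26 than at CT22 and CT30 (-0.51 ± 0.15, adjusted p = 0.0204), as were 1353 of the 15637 genes tested. A count over the whole gene does not show which part of it was deleted, and muscle also holds cells in which the Cre is not active. Skeletal muscle fiber genes summed to between 62630 and 85050 FPKM in every library. Liver genes summed to 54.5 FPKM or less in control libraries but reached 185 FPKM in the highest FoxP1SkmKO KPC library. Markers of the exocrine pancreas and of epithelium stayed at or below 2.79 FPKM.

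**Figure D1:**
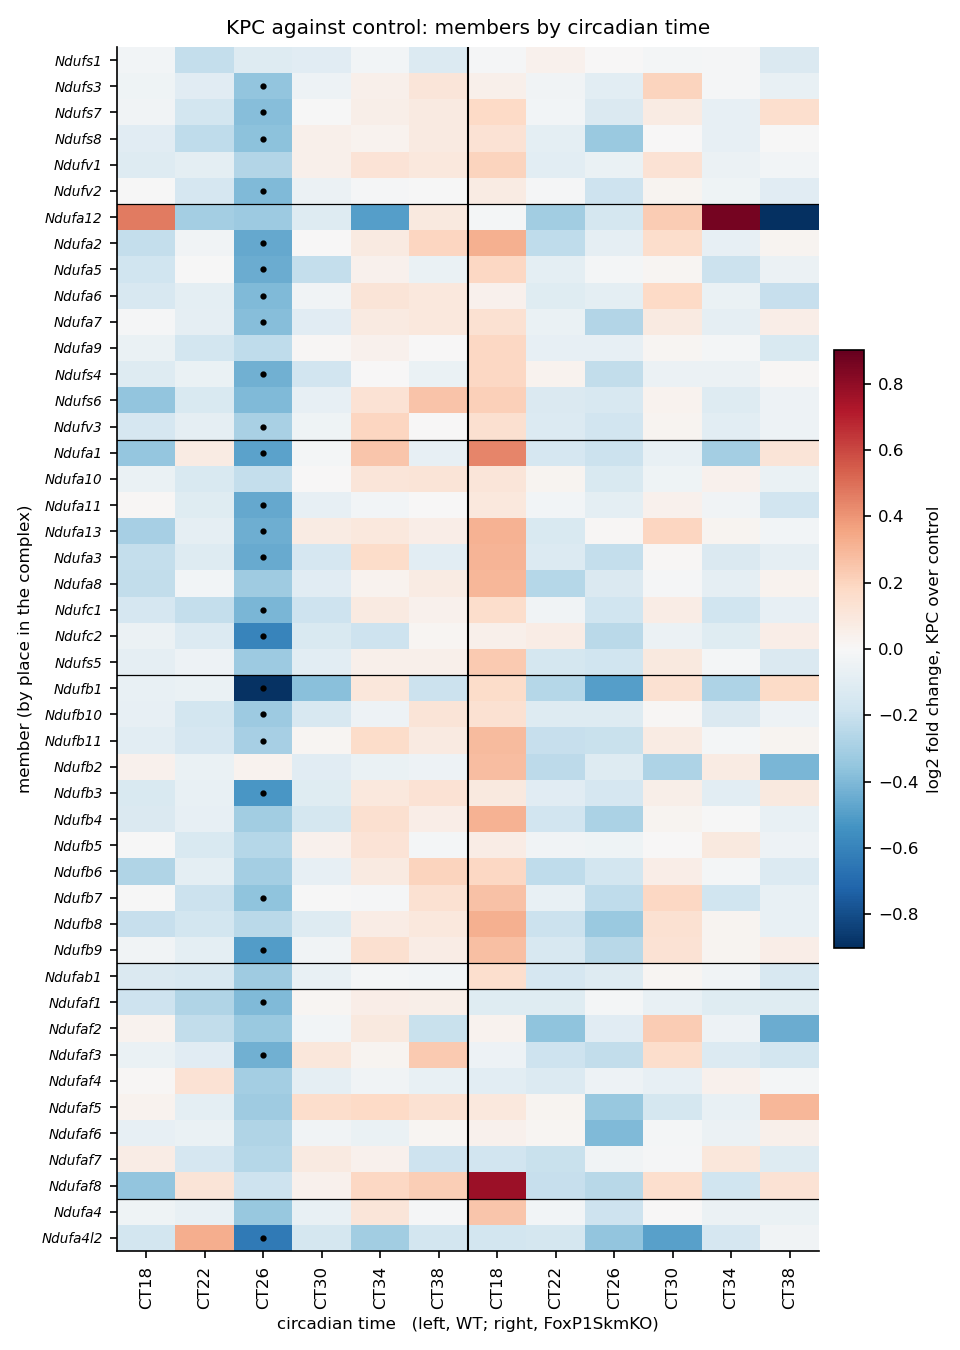
Log2 fold change of KPC over control mice for 46 members (rows, grouped by place in the complex) at the 6 circadian times in WT (left) and FoxP1SkmKO mice (right). Blue is lower and red is higher in KPC mice, a dot marks an adjusted p under 0.05, and 25 dots lie in the column of WT mice at CT26 and none elsewhere (*Ndufa12* at CT38 in FoxP1SkmKO mice, at -1.62, lies beyond the color scale).

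Promoter sequences are shown for 3 members that fell in WT KPC mice at CT26, because their start regions hold letters of motifs that are known in nuclear genes of respiration or in circadian and forkhead regulation. RefSeq promoters (GRCm38.p6, 250 bases before to 50 after the start) were matched to 41 of the 48 members by symbol. Exact letters were searched on both strands. The YY1 motif AAGATGGC was in 8 of 41 member promoters (19.5%) and in 2.88% of 27025 promoters, and in all 8 it lay within the 50 bases after the start. The core of the NRF1 motif, CGCATGCG, was in 4 (9.8%) and in 1.91% of all promoters. The ETS motif CCGGAAG, which GABPA also binds, was in 6 (14.6%) and in 9.12% of all. The E-box CACGTG, bound by clock activators and repressors among others, was in 2 (4.9%, *Ndufa7* and *Ndufv1*) and in 7.24% of all. The forkhead motif GTAAACA was in 1 (2.4%, *Ndufaf1*) and in 3.55% of all, and the estrogen-related receptor motif TCAAGGTCA was in none of the 41 and in 0.407% of all. None of these motifs contains another, and a match is a description of the sequence alone. Of the 6 matches to the ETS motif, 5 lay before the start, as did 3 of the 4 to the NRF1 core. Median GC content was 59.3% in the member promoters and 52.7% in all. The 250 bases before the start follow, 5′ to 3′ on the gene's strand and placed on GRCm39 by exact match, with motif letters in capitals.
*Ndufa11* (membrane arm subunit, chr17:57024512-57024761, plus strand, NRF1 core): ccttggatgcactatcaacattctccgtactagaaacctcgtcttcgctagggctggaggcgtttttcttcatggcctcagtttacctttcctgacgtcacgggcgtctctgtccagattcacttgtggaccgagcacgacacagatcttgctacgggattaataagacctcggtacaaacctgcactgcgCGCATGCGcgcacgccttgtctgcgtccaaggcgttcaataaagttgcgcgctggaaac
*Ndufa7* (matrix arm subunit, chr17:34043296-34043545, plus strand, E-box): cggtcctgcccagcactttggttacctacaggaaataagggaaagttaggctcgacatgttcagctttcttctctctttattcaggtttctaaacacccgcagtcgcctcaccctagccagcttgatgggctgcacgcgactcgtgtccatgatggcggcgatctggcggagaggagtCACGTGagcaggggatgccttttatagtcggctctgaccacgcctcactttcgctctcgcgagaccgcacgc
*Ndufaf1* (assembly factor, chr2:119493316-119493565, minus strand, forkhead and ETS motifs): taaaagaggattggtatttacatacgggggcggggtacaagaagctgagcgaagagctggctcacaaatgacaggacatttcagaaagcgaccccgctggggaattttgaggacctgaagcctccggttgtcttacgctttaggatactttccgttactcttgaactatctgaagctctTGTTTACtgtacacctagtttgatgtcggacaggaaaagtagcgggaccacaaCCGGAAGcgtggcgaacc

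Nearly all members were abundant in this muscle. Mean levels over the 48 libraries were among the highest for *Ndufb11* (193.9 FPKM), *Ndufs7* (192.2 FPKM), and *Ndufa4* (191.4 FPKM). Assembly factors, which build the complex but are not part of it, were lower, from 21.9 FPKM for *Ndufaf1* to 1.56 FPKM for *Ndufaf2*. *Ndufb2*, a membrane arm subunit, was listed at only 1.81 FPKM, over a gene length of 5628 bases. *Ndufb11b* had no count in any of the 48 libraries, which allows at most 3 counts in a library, and it was the 1 member that did not pass the filter on low counts. The other 47 were tested, and the lowest count of any of them in any library was 46 (*Ndufaf2*).

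Most members varied little between mice. The coefficient of variation of FPKM over all 48 libraries was 5.6% for *Ndufs1*, the core subunit that holds iron-sulfur clusters of the matrix arm. It was 26.9% for *Ndufa4l2* and 42.6% for *Ndufa12*. The pseudogene *Ndufa12-ps* is similar in sequence, and reads could be split between it and *Ndufa12*. *Ndufa12* ran from 22.0 to 111 CPM, a range of 5.05-fold, and *Ndufa12-ps* from 22.4 to 68.2, whereas their sum ran from 59.3 to 139 with a coefficient of variation of 20.2%. Values of *Ndufa12* are therefore uncertain.

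The study compared KPC and control mice at each circadian time. CT26 falls early in the subjective day, when mice rest. In WT mice at CT26, 26 of 47 members were lower in KPC mice and none was higher, at an adjusted p under 0.05. All adjusted p of levels here are from the edgeR quasi-likelihood test with Benjamini-Hochberg adjustment. Where not said otherwise, it covered the 15637 genes that passed a filter on low counts. Among all genes tested, 2.53% were lower in this comparison. The median log2 fold change of the members was -0.34, with a range from -0.89 to 0.03, against 0.00 for all genes, and 46 of the 47 values were below 0. Fewer cells of a type and less RNA per cell cannot be told apart in such bulk samples.

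**Figure D2:**
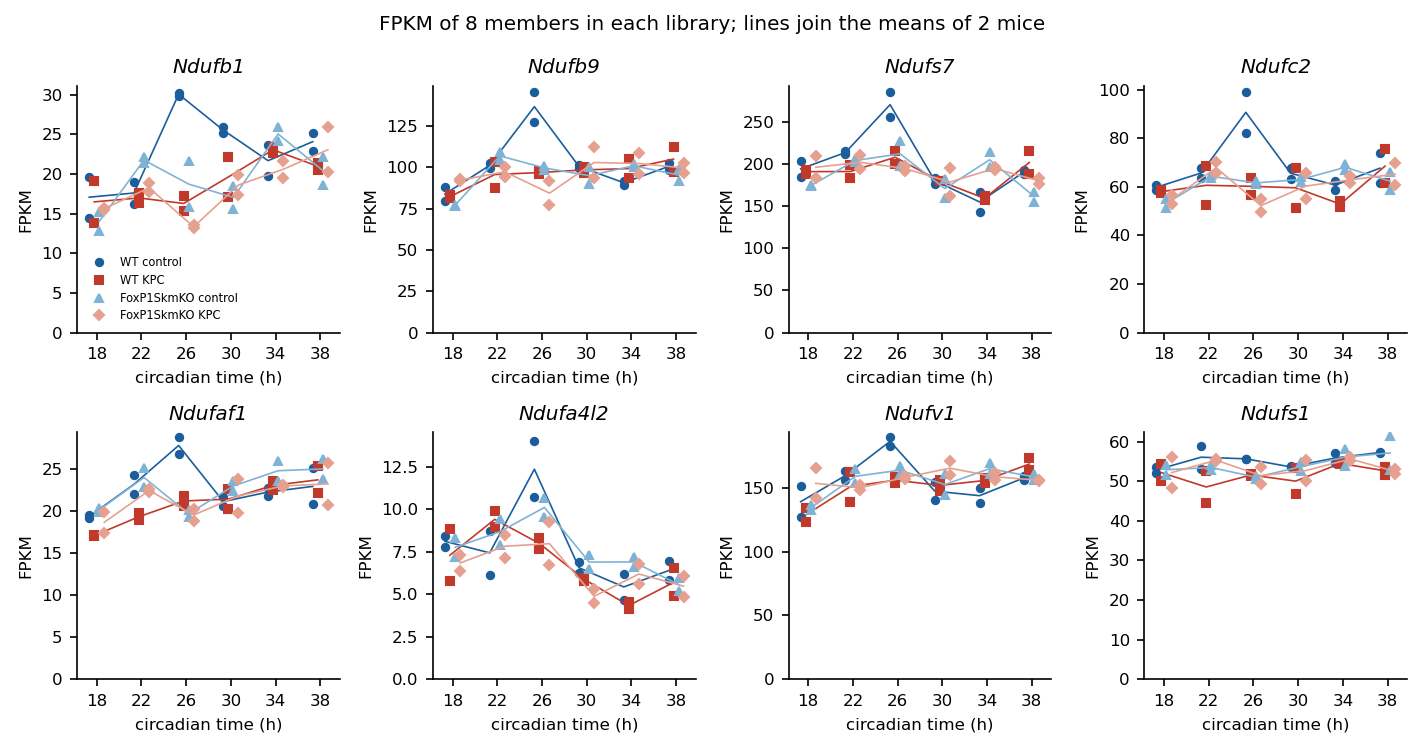
FPKM (vertical axis, from 0) of 8 members in each of the 48 libraries against circadian time, with 1 symbol a mouse and lines through the means of 2 mice. In WT controls at CT26 the 2 symbols of *Ndufb1* (29.9 and 30.2 FPKM) and of *Ndufb9* (128 and 146 FPKM) lie above every other library, while *Ndufs1* stays level.

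Among the core subunits, which carry the flavin and the iron-sulfur clusters, 5 of 7 fell (median -0.35). *Ndufs7*, which holds the last iron-sulfur cluster before ubiquinone, was at 285.7 and 255.7 FPKM in WT control mice at CT26 and at 200.8 and 215.6 FPKM in WT KPC mice. Its log2 fold change was -0.38 ± 0.09 (SE, 2 mice a group), with adjusted p = 0.0093. The groups did not overlap, as was so in this direction for 45 of 47 members and 23.5% of all genes tested. *Ndufs3* was at 130.4 and 117.8 FPKM in control and 98.5 and 96.5 FPKM in KPC mice (-0.35 ± 0.08, adjusted p = 0.00446). *Ndufs8* was at 128.1 and 125.2 FPKM in control and 99.8 and 97.3 FPKM in KPC mice (-0.37 ± 0.09, adjusted p = 0.0129). *Ndufv2*, a subunit of the NADH-oxidizing module, was at 155.5 and 139.7 FPKM in control and 116.1 and 108.6 FPKM in KPC mice (-0.40 ± 0.10, adjusted p = 0.0117). *Ndufv1*, which binds the flavin, did not pass at -0.26 ± 0.09 (adjusted p = 0.0523). *Ndufs1* was at 55.6 and 55.7 FPKM in control and 51.3 and 51.8 FPKM in KPC mice (-0.12 ± 0.08, adjusted p = 0.456). The fitted differences of the core ran from 7.7% lower for *Ndufs1* to 24.2% lower for *Ndufv2*.

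Accessory subunits surround the core and stabilize it. In the matrix arm, 6 of 9 fell (median -0.40). *Ndufa2* was at 229.3 and 210.9 FPKM in control and 159.7 and 161.7 FPKM in KPC mice (-0.46 ± 0.10, adjusted p = 0.00415). *Ndufs4*, mutated in inherited complex I deficiency, was at 48.3 and 46.4 FPKM in control and 37.2 and 33.2 FPKM in KPC mice (-0.43 ± 0.11, adjusted p = 0.0116). *Ndufa7* was at 49.4 and 49.5 FPKM in control and 38.6 and 37.4 FPKM in KPC mice (-0.39 ± 0.09, adjusted p = 0.00616). All 3 separated the groups without overlap, as did 45 of all 47 members and 23.5% of all genes tested in this direction. *Ndufa6* fell by 0.40 ± 0.10 on the log2 scale (adjusted p = 0.0103), from 75.4 and 68.6 to 53.7 and 56.2 FPKM. *Ndufa12*, whose reads could be split with its pseudogene, gave -0.33 ± 0.50.

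In the proximal membrane arm, 6 of 9 fell (median -0.44). *Ndufc2* was at 99.1 and 82.3 FPKM in control and 63.6 and 56.9 FPKM in KPC mice (-0.60 ± 0.12, adjusted p = 0.00235). *Ndufa11*, which stabilizes the junction of the membrane arm, was at 119.5 and 106.6 FPKM in control and 86.1 and 79.1 FPKM in KPC mice (-0.46 ± 0.12, adjusted p = 0.0128). In the distal membrane arm, 6 of 11 fell (median -0.31). *Ndufb1* showed the largest difference of the 47, from 30.2 and 29.9 FPKM in control to 17.2 and 15.4 FPKM in KPC mice (-0.89 ± 0.16, adjusted p = 4.55e-04). *Ndufb9* was at 145.6 and 127.6 FPKM in control and 95.9 and 97.6 FPKM in KPC mice (-0.50 ± 0.10, adjusted p = 8.98e-04). *Ndufb2* was the 1 member above 0 (0.03 ± 0.21), at 1.88 and 1.85 FPKM in control and 1.39 and 2.44 FPKM in KPC mice. The acyl carrier *Ndufab1*, which also serves mitochondrial fatty acid synthesis, did not pass (-0.32 ± 0.11, adjusted p = 0.0645).

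Of the 8 assembly factors among the members 2 fell, and all 8 values lay below 0 (median -0.31). *Ndufaf1*, which works on the early membrane module, was at 28.7 and 26.8 FPKM in control and 21.8 and 20.5 FPKM in KPC mice (-0.40 ± 0.11, adjusted p = 0.0165). *Ndufaf3*, an early assembly factor, was the other one called (-0.43 ± 0.13, adjusted p = 0.0392). Of 12 assembly factors without the Nduf name, 3 fell: *Dmac1* (-0.49 ± 0.13), *Timmdc1* (-0.41 ± 0.12), and *Tmem70* (-0.29 ± 0.09), and their median was -0.28. *Ndufa4*, now placed in complex IV, did not pass (-0.34 ± 0.12, adjusted p = 0.0713). *Ndufa4l2*, a paralog induced by hypoxia in other settings, fell from 14.02 and 10.69 to 8.33 and 7.64 FPKM (-0.64 ± 0.20, adjusted p = 0.0411).

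At the other times in WT mice no member was called, beside 0.0% of all genes called at CT18, CT22, and CT34, 0.0064% at CT30, and 0.0256% at CT38. The members' median log2 fold changes were -0.08, -0.10, -0.06, 0.06, and 0.05 at CT18, CT22, CT30, CT34, and CT38. At an unadjusted p under 0.05, 7, 4, 1, 1, and 0 members passed at these times, beside 6.23%, 4.77%, 5.21%, 6.06%, and 9.82% of all genes. The members' share was below that of all genes at CT30, CT34, and CT38. DESeq2 on the same counts called 0. Averaged over the 6 times, *Ndufb1* alone passed among the members (-0.25 ± 0.06, adjusted p = 0.0356), beside 0.627% of all genes lower. Markers of other cells were also lower in this average, 3 of 6 fibroblast genes (*Col1a1*, -0.91 ± 0.21, *Col1a2*, and *Col3a1*) and 1 of 6 endothelial genes (*Kdr*, -0.27 ± 0.07), and their part in the result was not tested. Without CT26 in the average no member passed, and the members' median moved from -0.08 to -0.03.

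In FoxP1SkmKO mice no member was called at any of the 6 times, and DESeq2 called 1. At an unadjusted p under 0.05, 15, 3, 10, 2, 1, and 3 members passed from CT18 to CT38, which is 31.9%, 6.38%, 21.3%, 4.26%, 2.13%, and 6.38% of the 47. Of all genes, 13.8%, 4.69%, 8.9%, 8.95%, 4.05%, and 8.05% passed this threshold. The share of all genes called was 0.0192% at CT18, 0.0% at CT22, CT30, and CT34, 0.0384% at CT26, and 0.0064% at CT38. At CT26 the members' median log2 fold change was -0.16 and 45 of 47 values were below 0. *Ndufb1* was at 21.6 and 15.9 FPKM in control and 13.2 and 13.5 FPKM in KPC mice (-0.50 ± 0.16, adjusted p = 0.357). *Ndufs8* had the lowest p there (-0.34 ± 0.09, adjusted p = 0.225). *Ndufaf1* did not differ by more than its error, with 20.0 and 19.2 FPKM in control and 20.2 and 18.8 FPKM in KPC mice. At CT18 the median was 0.16 and 40 of 47 values were above 0. Calls at CT18 depended on which of the 2 FoxP1SkmKO KPC libraries was kept. Replicate 2 had liver genes at 185 FPKM against 1.07 FPKM in replicate 1, and this pair correlated least of the 24 (r = 0.973 across genes). Without replicate 2 the members' median was 0.10. The part of the liver genes in this result was not tested. Averaged over time no member was called by edgeR or by DESeq2 and 1 had an unadjusted p under 0.05 (12.4% of all genes), beside 0.428% of all genes called.

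The difference between genotypes was tested directly as the KPC effect in WT minus that in FoxP1SkmKO mice. No member passed at any time or averaged over time, by edgeR with the filter on low counts or by DESeq2. Without that filter edgeR called some members, as given with the other alternatives below. The share of all genes called was 0.345% at CT26, 0.0064% at CT22 and at CT34, and 0.0% at CT18, CT30, CT38, and on average. At CT26 the members' median difference was -0.21, and 7 (14.9%) had an unadjusted p under 0.05, beside 1722 of all 15637 genes, led by *Ndufa2* (-0.38 ± 0.14, adjusted p = 0.282) and *Ndufaf1* (-0.38 ± 0.15, adjusted p = 0.306). At CT18, where the median difference was -0.24, 16 (34.0%) had an unadjusted p under 0.05, beside 10.4% of all genes, and averaged over time 2 did, beside 6.52%. The calls in WT mice alone do not show that the members responded differently in the genotypes.

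**Figure D3:**
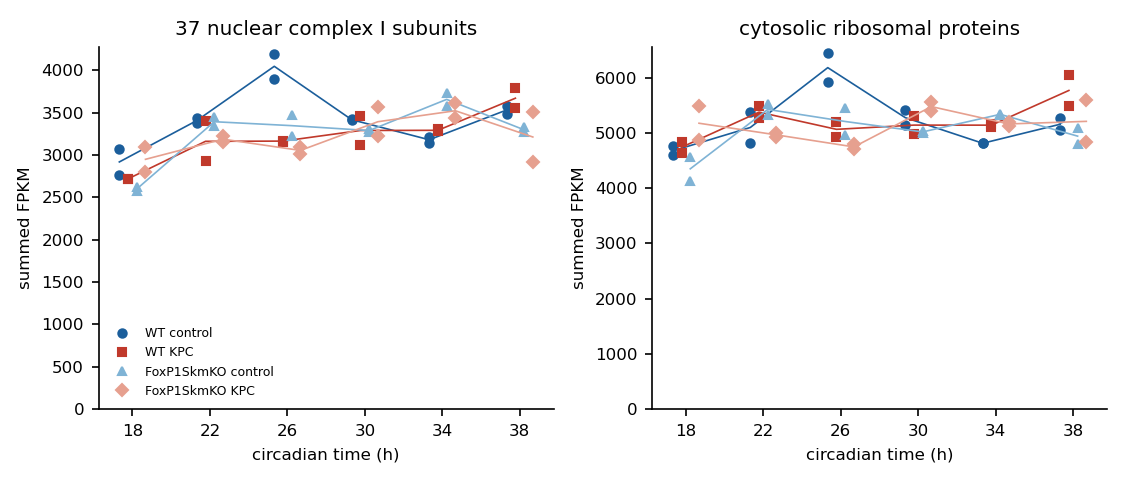
Summed FPKM (vertical axis, from 0) of the 37 complex I subunits among the members (left) and of the cytosolic ribosomal proteins (right) in each library against circadian time, with lines through the means of 2 mice. The 2 WT control libraries at CT26 hold the highest values for complex I, at 3900 and 4194 FPKM, and stand at 5927 and 6444 FPKM for the ribosomal proteins, where 1 WT KPC library reaches 6050 FPKM.

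A comparison of KPC with control mice does not tell which of the groups moved, so CT26 was also set against the mean of CT22 and CT30 within each group. These comparisons share the libraries of CT26 with those above. In WT control mice 20 of 47 members were higher at CT26 and none was lower, beside 6.41% of all genes higher, with a median of 0.25. *Ndufs7* was higher by 0.46 ± 0.08 on the log2 scale (adjusted p = 1.33e-04), *Ndufb9* by 0.44 ± 0.08 (adjusted p = 3.01e-04), and *Ndufs8* by 0.42 ± 0.08 (adjusted p = 4.70e-04). *Ndufs1* gave 0.02 ± 0.07. In the other 3 groups no member was called by edgeR or by DESeq2, and 2, 5, and 15 (4.26%, 10.6%, and 31.9%) had an unadjusted p under 0.05, beside 7.03%, 6.63%, and 10.2% of all genes. There the share of all genes called was 0.0128% in WT KPC, 0.0% in FoxP1SkmKO control, and 0.064% in FoxP1SkmKO KPC mice, and the members' medians were 0.00, 0.00, and -0.14.

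The same libraries entered the comparison of genotypes. In control mice at CT26, 13 of 47 members were lower in FoxP1SkmKO than in WT mice, beside 2.29% of all genes lower, with a median of -0.26. *Foxp1* itself was not lower in FoxP1SkmKO mice in these libraries (0.30 ± 0.17, adjusted p = 0.344). In KPC mice at CT26 it gave -0.07 ± 0.18 (adjusted p = 0.952). *Ndufb9* was at 145.6 and 127.6 FPKM in WT and 98.6 and 100.5 FPKM in FoxP1SkmKO control mice (-0.46 ± 0.10, adjusted p = 0.00259). *Ndufaf1* (-0.51 ± 0.10, adjusted p = 0.00268) and *Ndufa7* (-0.43 ± 0.09, adjusted p = 0.00291) followed. Of markers of other cells in this comparison, *Fabp4* from the adipocyte list of 8 genes was lower (-0.42 ± 0.13). *Flt1* from the endothelial list of 6 genes was higher (0.60 ± 0.15). Summed endothelial level was 78.0 and 90.7 FPKM in WT and 82.4 and 92.3 FPKM in FoxP1SkmKO control mice at CT26. Summed adipocyte level, with *Car3* by far its highest gene, was 1067 and 1048 FPKM against 929 and 1012 FPKM. The part of these markers in the result was not tested. In KPC mice at CT26 no member was called by edgeR or by DESeq2 beside 0.0064% of all genes, and 4 (8.51%) had an unadjusted p under 0.05 beside 7.58% of all genes. Averaged over time, *Ndufs4* was lower in FoxP1SkmKO control mice (-0.15 ± 0.04, adjusted p = 0.045), beside 1.58% of all genes lower, and none was called in KPC mice by edgeR or by DESeq2 (1 with an unadjusted p under 0.05, beside 10.8% of all genes), beside 0.32% of all genes called.

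The summed FPKM of the 37 subunits was 4194 and 3900 in the WT control mice at CT26, and 2766 to 4194 with a median of 3417 over the 12 WT control mice. In WT KPC mice at CT26 it was 3158 and 3170, in FoxP1SkmKO control mice 3474 and 3219, and in FoxP1SkmKO KPC mice 3100 and 3008. Both WT control libraries at CT26 stood above the other 10 WT control libraries in 28 of 47 members (59.6%), against 10.2% of all genes tested. Both stood above both WT KPC libraries of that time in 45 of 47 members (95.7%), against 23.5% of all genes. Replicate 1 was the higher of the 2 in 41 of 47 members.

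Single libraries and gene length moved these counts. Counts from fits with a library left out or a trend removed are given without the share of all genes called there. They do not show whether the members lost more calls than other genes did. Without WT control replicate 1 at CT26, 1 of 47 members (*Ndufb1*) stayed called in WT mice, and the median was -0.31. Without WT control replicate 2, 20 were called, and without WT KPC replicate 1 or 2 of that time, 8 and 7. These fits assume that the lone library left in a group varies like the other groups. Without WT control replicate 1, the 20 members higher at CT26 than at CT22 and CT30 became 3, and the 13 lower in FoxP1SkmKO control mice became 0. Without FoxP1SkmKO control replicate 2 at CT26 the latter count was 1.

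**Figure D4:**
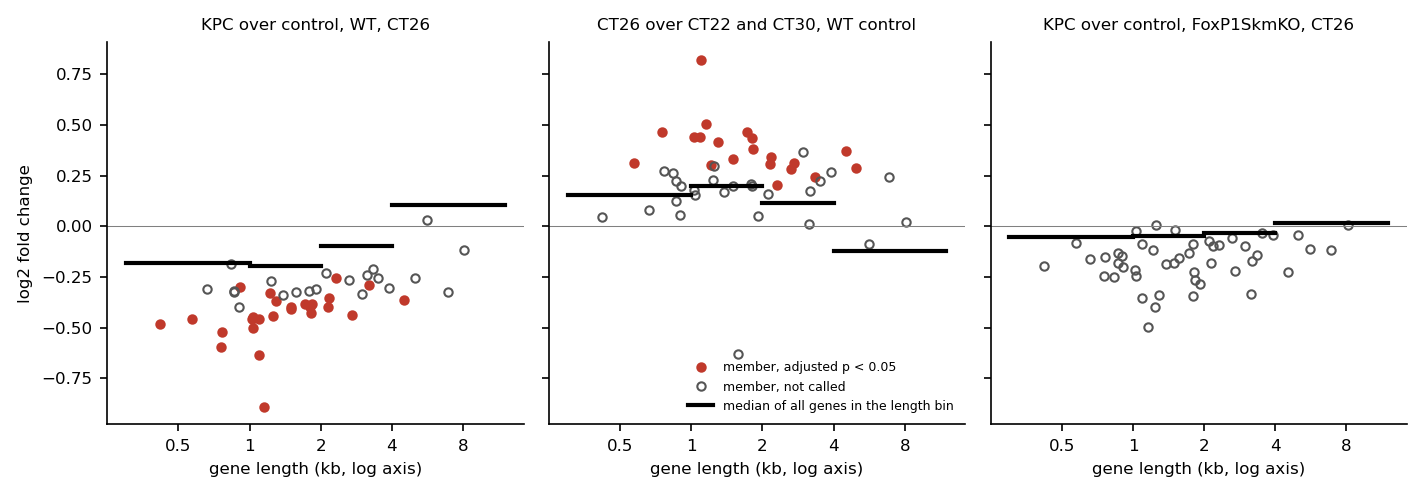
Log2 fold change of the 47 members (points, filled where called) against gene length in kb on a log axis, in 3 comparisons at CT26. Black bars give the median of all genes tested in 4 length bins, which runs from -0.18 under 1 kb to 0.11 over 4 kb in WT mice (left), from 0.15 to -0.12 in WT control mice over time (middle), and from -0.05 to 0.02 in FoxP1SkmKO mice (right).

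The members are short, with a median gene length of 1535 bases against 4045 bases for all genes tested. In WT mice at CT26 the median log2 fold change of all genes rose with length, from -0.18 for 1118 genes under 1 kb and -0.20 for 2003 genes of 1 to 2 kb to -0.10 for those of 2 to 4 kb and 0.11 for 7904 genes over 4 kb. The members lay below these medians in every bin, at -0.36, -0.40, -0.28, and -0.26, and of the 5 members over 4 kb 1 was called. With the trend of counts on gene length removed in each library, 3 of 47 members were called (*Ndufab1*, *Ndufb1*, and *Ndufb7*), 46 values stayed below 0, and the median was -0.21. The balance of short genes (under 2 kb) over long genes (over 4 kb), as a difference of median log2 deviations, was 0.35 and 0.24 in the 2 WT control libraries at CT26 and between -0.18 and 0.18 in the other 46. These 2 libraries ranked first and second of 48 in this balance and in the members' own median deviation. With the trend on GC content removed, 24 members were called, 20 of them among the 26, and the members' median GC content was 50.5% against 50.1% for all genes.

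**Figure D5:**
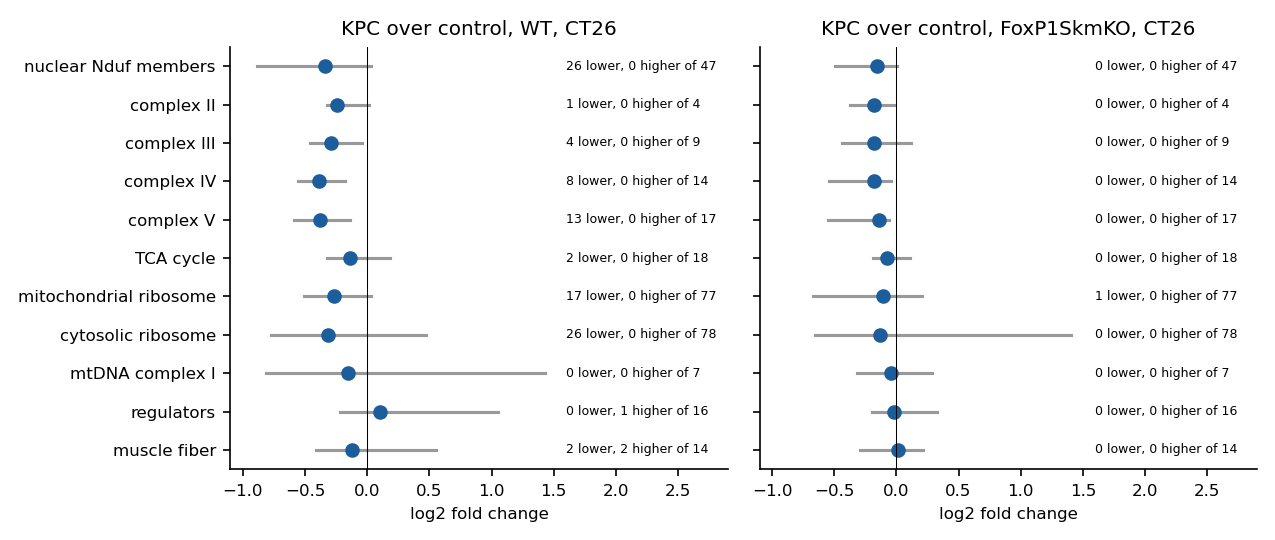
Median (point) and range (line) of log2 fold changes of KPC over control mice at CT26 for the members and 10 other gene lists, in WT (left) and FoxP1SkmKO mice (right), with the numbers of genes called lower and higher. In WT mice the medians of complexes II to V and of both ribosomes lie between -0.25 and -0.39, beside -0.34 for the members.

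Other nuclear genes of the respiratory chain, from lists chosen with earlier results of these data known, differed in WT mice at CT26 in the same direction. Of complexes II to V, 26 of 44 genes fell and none rose (median -0.37). In complex IV, the last enzyme of the chain, 8 of 14 fell, led by *Cox4i1* (-0.43 ± 0.09, adjusted p = 0.00159) and *Cox7c* (-0.56 ± 0.11, adjusted p = 0.0019). In complex V, the ATP synthase, 13 of 17 fell, led by *Atp5g3* (-0.46 ± 0.10, adjusted p = 0.00246). In complex III 4 of 9 fell, among them *Uqcrc1* (-0.33 ± 0.08), and in complex II 1 of 4 fell, *Sdhc* (-0.32 ± 0.07). Genes of the tricarboxylic acid cycle passed in 2 of 18 cases, *Pdhb* and *Suclg1* (median -0.14).

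Genes outside the chain did so as well. Of the mitochondrial ribosomal proteins, 17 of 77 fell (median -0.27), led by *Mrps21* (-0.45 ± 0.10), and of the cytosolic ribosomal proteins 26 of 78 (median -0.31), among them *Rps14* (-0.46 ± 0.09). The 7 complex I genes of mitochondrial DNA had a median of -0.15, from -0.82 to 1.43, and none was called. Of 16 regulators of mitochondrial genes none fell, and *Ppara*, a nuclear receptor of fatty acid use, rose (1.05 ± 0.29, adjusted p = 0.0202). In FoxP1SkmKO mice at CT26 none of these genes was called but 1 mitochondrial ribosomal protein. At CT26 against its neighbors in WT control mice, 21 of 44 genes of complexes II to V, 28 of 77 mitochondrial and 35 of 78 cytosolic ribosomal proteins were higher, while *Ppara* was lower (adjusted p = 0.00645). In WT KPC mice at CT26 the muscle fiber gene *Ttn*, which encodes the giant protein titin, rose (0.55 ± 0.10, adjusted p = 8.44e-04), as did *Myh4* (0.36 ± 0.11), while *Tnni2* (-0.41 ± 0.10) and *Pvalb* (-0.40 ± 0.12) fell.

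Markers of other cells were checked beside these results. Of the erythroid list 0 of 5 genes passed between KPC and control WT mice at CT26 (median -0.75), while 2 of 5 were higher at CT26 than at its neighbors in WT controls, *Hbb-bs* (0.88 ± 0.26, adjusted p = 0.0189) and *Hba-a1* (0.82 ± 0.25, adjusted p = 0.023). In that comparison the endothelial genes *Cldn5* and *Flt1* moved in opposite directions (0.83 ± 0.18 and -0.43 ± 0.13). Summed erythroid level was 246 and 330 FPKM in the 2 WT control libraries at CT26 and 81.7 to 330 FPKM over the 12. In WT KPC mice at CT26, of the adipocyte list 1 of 8 fell, *Fabp4* (-0.47 ± 0.13), and of the endothelial list 1 of 6 rose, *Flt1* (0.47 ± 0.15). In WT KPC against control mice at CT26, none of the macrophage (8), fibroblast (6), nerve and Schwann cell (5), slow fiber (8), brown adipocyte (2), liver (6), and pancreas or epithelium (3) genes tested was called. The part of these markers in the members' result was not tested.

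Rhythm was tested with a sinusoid of 24 h on FPKM over the 12 mice of each group, with a threshold of p under 0.01. Shares of all genes for this F test are over every gene whose FPKM varied (27209 in WT control mice). Those for edgeR are over the 15637 genes that passed the filter on low counts. No member was rhythmic in WT control mice, beside 4.92% of all genes. In WT KPC mice 1 was, *Ndufa4l2* (p = 5.8e-04 by the F test, n = 12 mice, with an adjusted p of 0.0754), beside 4.22%. It had a fitted peak at CT22.4 and an amplitude of 34.4% of its level. In FoxP1SkmKO control mice (n = 12) 3 were, *Ndufa4l2* with a peak at CT24.4 (F test p = 0.00383), *Ndufs6* at CT32.1 (F test p = 0.00858), and *Ndufa1* at CT32.1 (F test p = 0.00876), beside 4.07%. In FoxP1SkmKO KPC mice (n = 12) 3 were, *Ndufb8* with a peak at CT33.3 (F test p = 0.00456), *Ndufb6* at CT32.6 (F test p = 0.00568), and *Ndufa12* at CT30.9 (F test p = 0.00851), beside 2.63%. None of these passed a Benjamini-Hochberg adjustment of the F test in any group, whereas edgeR on counts gave 1, 1, 3, and 3 members with an adjusted p under 0.05 in the 4 groups in this order.

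The fitted waves of the members were small, with median amplitudes of 10.2% of the level in WT control, 7.5% in WT KPC, 9.8% in FoxP1SkmKO control, and 6.8% in FoxP1SkmKO KPC mice. In WT control mice 36 of 47 fitted peaks lay between CT24 and CT30, with a median of CT26.5. In WT KPC mice 2 did and 33 lay later, up to CT36, with a median of CT33.4. In FoxP1SkmKO mice the medians were CT30.9 in control and CT32.7 in KPC mice. Peaks of waves that mostly did not pass the test are descriptions. A test of whether KPC mice differed in rhythm from controls (n = 12 each) passed p under 0.05 for 0 members in WT mice, beside 5.07% of all genes, and for 1 in FoxP1SkmKO mice (*Ndufaf5*, p = 0.0443 by the F test with an adjusted p of 0.757), beside 5.09%. With edgeR on counts, 8 members were rhythmic in WT control and 8 in WT KPC mice, beside 11.1% and 9.2% of all genes at an unadjusted p. In FoxP1SkmKO control and KPC mice 5 and 7 were, beside 9.64% and 6.59%. By edgeR 7 differed in rhythm in WT mice, beside 7.54%. The counts that follow, each with a library left out, lack the share of all genes in the same fit. They do not show a change particular to the members. Without WT control replicate 2 at CT38, 14 members differed in rhythm in WT mice by the F test and 3 were rhythmic in WT control mice. Without WT KPC replicate 1 at CT22, 5 were rhythmic in WT KPC mice. In FoxP1SkmKO KPC mice the count was 0 without replicate 2 at CT34 and 5 without replicate 1 at CT38, and in FoxP1SkmKO control mice it was 0 without replicate 1 at CT26 or either replicate at CT38.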

How the data were processed

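RNA was isolated from tibialis anterior muscle of 48 mice, and poly-A libraries were sequenced. The deposited gene counts (unit: whole-number counts, in 12 tables) and FPKM values were made by the authors against mm39. The processing notes name HISAT2 2.0.5 and DESeq2 1.20.0, whereas the methods of the study name STAR as aligner. Normalized count columns (signal, counts divided by size factors by the authors) were deposited beside the counts, as were columns of the authors' own log2 fold changes and p-values, which were not used. Count tables left out some genes of low count, which were recovered as whole reads from the deposited FPKM (28541 library and gene pairs, each of 1 count, whole within 0.05).

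Counts were tested with edgeR 4.0.16 (R 4.3.3): 24 groups in 1 fit, filterByExpr, TMM scaling, quasi-likelihood test, and Benjamini-Hochberg adjustment over 15637 genes at 0.05. Errors are standard errors of the fit. With 2 mice a group, p-values rest on a spread shared across groups and genes. Rhythm was fitted as a 24 h sinusoid on FPKM with an F test in Python 3.11.15. DESeq2 1.42.0 and limma 3.58.1 were alternatives, beside other filters, scalings, trends on gene length (span 0.4) and GC content, and each library left out. Total counts ran from 14480867 to 20787784 a library, and replicates differed by more than sampling noise, as given below.

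Members named were *Ndufs1*, *Ndufv1*, *Ndufa4*, *Ndufa4l2*, *Ndufab1*, and *Ndufaf1*, the 12 of lowest adjusted p in WT mice at CT26, up to 3 called elsewhere, those of lowest level, and those against the majority or not tested. In each list up to 4 called genes of lowest adjusted p were eligible. Other genes named were chosen after their values were seen. Values of 2 genes are counted in the totals but not reported here. Members and gene lists were chosen with earlier results of these data known, and the promoters shown were chosen after motifs were seen. Replicates of a group were compared: counts of the 24 pairs differed by more than sampling noise (chi-square 5.15 to 17.4 per degree of freedom).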

Additional observations from a re-analysis of the deposited data

Results flagged for a closer look

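*Ndufaf5*, an assembly factor that modifies a core subunit, differed in rhythm between control and KPC mice within FoxP1SkmKO (p = 0.0443 by the F test, n = 12 mice a group). Its fitted peak was at CT28.7 with an amplitude of 11.2% of the level in control mice and at CT37.9 with 7.5% in KPC mice. The adjusted p was 0.757, and the difference was no longer past 0.05 with the replicate block or without CT26. *Ndufaf5* was the 1 member of 47 past this threshold, beside 5.09% of all genes whose FPKM varied.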

How the results depend on the processing

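Signs of log2 fold changes were followed for the members always named and for the called members of lowest p. None of these changed under the alternatives run. Among all 47 members some signs changed. *Ndufb2*, the 1 member above 0 in WT mice at CT26, was not followed. All 47 values of that comparison were below 0 with the GC content trend removed. At CT26 against its neighbors in WT controls, 2 values were below 0, and 11 were with the gene length trend removed. For FoxP1SkmKO against WT controls at CT26, 1 value was above 0, and 4 were with that trend removed. The count of 26 members called in WT mice at CT26 became 3 with the gene length trend removed, 2 of them among the 26. It became 4 with the replicate block and that trend removed, 3 of them among the 26, and 10 with edgeR on the 4 libraries alone. The count of 20 higher at CT26 in WT controls became 7 under either length setting, 6 of them among the 20. The 13 lower in FoxP1SkmKO controls at CT26 became 2, and 1 with the block and the length trend removed. Without a filter on low counts, calls were 2 in WT mice at the other 5 times, 4 in FoxP1SkmKO mice at the 6 times, 6 and 1 averaged in WT and FoxP1SkmKO mice, 8 for the genotype difference at the 6 times, 3 at CT26 in the other 3 groups, and 2 and 1 for FoxP1SkmKO against WT in control averaged and KPC at CT26. In FoxP1SkmKO mice at the 6 times, DESeq2 on all libraries, edgeR on 4, and DESeq2 on 4 each called 1. Averaged in WT mice, calls were 2 with DESeq2 and 0 with either length setting, with limma at a pseudocount of 1 or 0.1, or without CT26. Averaged in controls, FoxP1SkmKO against WT gave 3 with DESeq2, 2 with the GC trend removed, and 0 with either length setting or limma. Shares of all genes are not given for these settings, nor for the single libraries left out below. The cause was not tested.

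Replicate numbers did not pair the samples: deviations of same-numbered KPC and control samples correlated between -0.1 and 0.09, and 0 of 12 pairs exceeded 0.1. With the replicate block, 25, 20, and 13 members were called in the 3 comparisons above. Rhythmic members became 1 in FoxP1SkmKO control mice, and the difference in rhythm in FoxP1SkmKO mice became 0.

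Rhythm by edgeR on counts gave 8, 8, 5, and 7 members in WT control, WT KPC, FoxP1SkmKO control, and FoxP1SkmKO KPC mice, and 7 for the difference in WT mice, beside 11.1%, 9.2%, 9.64%, 6.59%, and 7.54% of all genes. With edgeR, 1, 1, 3, and 3 had an adjusted p under 0.05, and 0 for either difference. Adjusted p of the F test gave 0 in every group, and among genes with a mean of at least 1 FPKM it gave 1 in WT KPC mice and 0 elsewhere. FoxP1SkmKO control mice gave 1 with log2(FPKM + 1) or log2(FPKM + 0.1) and 0 without CT26, as did the difference in FoxP1SkmKO mice without CT26.

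With single libraries left out, calls ranged from 1 to 20 in WT mice at CT26, 0 to 5 in FoxP1SkmKO mice at the 6 times, 0 to 4 in WT mice averaged, 3 to 20 for CT26 in WT controls, 0 to 2 for FoxP1SkmKO against WT in controls averaged, and 0 to 14 for that comparison at CT26. Rhythmic members ranged from 0 to 3, 1 to 5, 0 to 3, and 0 to 5 in the 4 groups in the order above, and the difference from 0 to 14 in WT and 0 to 2 in FoxP1SkmKO mice.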
